A study of Homo sapiens with 12 samples.

Results

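The genes described here are BCL6 and 9 members of the ZBTB family (ZBTB20, ZBTB16, ZBTB1, ZBTB4, ZBTB7A, ZBTB10, ZBTB17, ZBTB24 and ZBTB38), measured in leukemia cells exposed to a glucocorticoid. They were taken as every probe set whose platform gene symbol is one of these 10 names, with each probe set read on its own. This gave 44 of the 54613 probe sets that are not controls, and 10 of the 19775 genes with a symbol on the array. No member probe set carried a second symbol. The genes were selected with the dexamethasone differences of these same arrays known, so those differences and the calls made from them are given as descriptions only.

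CCRF-CEM-C7H2 is a glucocorticoid-sensitive clone of a human T-cell acute lymphoblastic leukemia line, and every group came from this 1 clone. The groups were cells given 100 nM dexamethasone, a synthetic glucocorticoid, for 6 h, cells given 0.1% ethanol, its carrier, for 6 h, cells given dexamethasone for 24 h, and cells given ethanol for 24 h. Each group held 3 Affymetrix HG-U133 Plus 2.0 arrays, 1 per independent experiment, and the experiment numbers were 0, 1 and 3 for the 6 h arrays but 1, 2 and 3 for the 24 h arrays. The study asked which primary microRNA transcripts respond to glucocorticoid. Expression is given throughout as log2 values, in which 1 unit is a doubling, and the values of a group are listed in the order of its experiments.

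Proteins of the ZBTB family, also called POK proteins, join an amino-terminal BTB domain to carboxy-terminal zinc fingers. The zinc fingers bind DNA, and the BTB domain pairs the proteins and, in many members, recruits corepressors such as BCOR with their histone deacetylases. Several members direct lymphocyte fate: BCL6 holds the program of germinal center B cells and follicular helper T cells, ZBTB16 (PLZF) that of innate-like T cells, and ZBTB7A (LRF) takes part in early B against T lineage choice. Some members bind methylated DNA, among them ZBTB4 and ZBTB38, and ZBTB17 (MIZ1) is the partner through which MYC represses genes.

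The arrays were alike in scale: their medians lay between log2 values of 3.01 and 3.12, and between 41.2% and 42.0% of probe sets per array reached a log2 of 4, which is used here as the background floor. The 3 glucocorticoid response genes with a tested probe set were higher with dexamethasone at both times, among them TSC22D3 and FKBP5, which checks the treatment labels. Of 12 T-lineage markers 10 were above the floor, among them CD3D, while CD2 and DNTT were below it on all arrays. None of the myeloid and erythroid markers on the array was tested. Codes in the array names of the labels, read here as scan codes though the labels do not call them batches, put the arrays in 3 sets: the 6 h dexamethasone arrays were 1 batch, the 6 h ethanol arrays another, and the 24 h arrays the last. Batch and treatment therefore cannot be told apart at 6 h. In bulk RNA, fewer cells of a type and less RNA per cell cannot be told apart either.

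A probe set was tested when it reached a log2 of 4 on at least 3 of the 12 arrays, as 28 of the 44 member probe sets did, and a call was an adjusted p under 0.05 in limma over all 23265 tested probe sets, of which 6.2% were called at 6 h and 47.3% at 24 h. Of the 28, 6 reached the floor only on the 3 dexamethasone arrays of 24 h, so they had to differ there: BCL6 215990_s_at and 228758_at, and ZBTB20 226250_at, 226252_at, 227082_at and 227121_at. Just outside the filter stood ZBTB20 232125_at and 232929_at with 2 arrays at the floor, and ZBTB7A 213303_x_at and ZBTB10 222863_at with 1. The other 12 untested probe sets never reached the floor, the only one of ZBTB16 among them.

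The promoters of the members with the largest differences are shown because the words that glucocorticoid receptor, STAT or BCL6, and MYC proteins recognise can be looked for in them. The windows are RefSeq sequences of GRCh38.p14, each reaching 250 bases before to 50 after an annotated start, and capitals mark every match to a searched word on either strand. BCL6 lies at chr3:187721377-187745468, and its windows below are chr3:187745419-187745718 and chr3:187736452-187736751, both on the minus strand. ZBTB20 lies at chr3:114314500-115147288, and of its 8 windows the one at chr3:114745933-114746232 (minus strand) is shown, since it holds the most matches to the receptor core word AGAACA (1 other holds 1 and the rest 0). ZBTB24 lies at chr6:109462594-109483219, with its window at chr6:109483170-109483469 on the minus strand.
BCL6, outer start: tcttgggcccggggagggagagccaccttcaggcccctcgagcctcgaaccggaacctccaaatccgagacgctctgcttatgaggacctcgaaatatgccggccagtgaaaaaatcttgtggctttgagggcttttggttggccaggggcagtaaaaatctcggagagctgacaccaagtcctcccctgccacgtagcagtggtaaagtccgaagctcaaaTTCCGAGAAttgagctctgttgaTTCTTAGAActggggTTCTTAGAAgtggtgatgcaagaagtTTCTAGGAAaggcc
BCL6, inner start: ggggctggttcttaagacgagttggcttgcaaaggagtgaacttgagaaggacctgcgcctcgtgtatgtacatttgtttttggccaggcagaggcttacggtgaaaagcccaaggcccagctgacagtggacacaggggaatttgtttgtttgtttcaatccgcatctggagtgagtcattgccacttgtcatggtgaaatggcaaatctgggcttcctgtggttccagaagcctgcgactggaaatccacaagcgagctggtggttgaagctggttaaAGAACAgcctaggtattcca
ZBTB20: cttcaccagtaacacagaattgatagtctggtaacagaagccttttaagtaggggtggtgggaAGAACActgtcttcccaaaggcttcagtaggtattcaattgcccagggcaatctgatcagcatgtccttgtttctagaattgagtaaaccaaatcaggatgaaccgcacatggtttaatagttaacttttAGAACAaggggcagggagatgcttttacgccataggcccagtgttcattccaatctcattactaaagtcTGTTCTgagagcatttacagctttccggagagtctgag
ZBTB24: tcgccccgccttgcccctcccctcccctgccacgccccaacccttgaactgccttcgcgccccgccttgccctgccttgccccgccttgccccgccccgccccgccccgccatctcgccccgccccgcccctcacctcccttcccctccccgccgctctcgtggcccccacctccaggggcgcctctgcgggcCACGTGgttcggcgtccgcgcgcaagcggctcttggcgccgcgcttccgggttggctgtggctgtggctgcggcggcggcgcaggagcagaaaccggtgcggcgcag

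The words searched were the full glucocorticoid receptor element (GNACA and TGTNC with 3 bases between), AGAACA, its 6-base core, GTAAACA, a FOXO word, TTCNNNGAA, a core shared by STAT and BCL6 sites, and CACGTG, the E-box that MYC binds. TTCNNNGAA reads the same on both strands in its fixed letters, as CACGTG does, and no match overlapped another in the windows shown. The outer BCL6 window held 4 matches to TTCNNNGAA, namely TTCCGAGAA from base -28, TTCTTAGAA from base -5 and again from base 11, and TTCTAGGAA from base 37, counted from the start as base 1 with no base 0. At least 1 such match occurred in 7.66% of all 35116 windows, and 4 or more occurred in 7 of them (0.0199%). The ZBTB20 window held 3 matches to AGAACA, a word found in 14.8% of all windows and at least 3 times in 76 of them (0.216%), while the inner BCL6 window held 1. Because the ZBTB20 window was picked from all windows of that gene for its matches, these shares of single windows do not measure how unusual it is. The ZBTB24 window held 1 match to CACGTG, which 7.26% of windows hold. Neither the full receptor element (0.39% of windows) nor GTAAACA (3.42%) was found in any of the 26 member windows searched, which belong to 7 members. Member windows on chromosome 8, where ZBTB10 lies, were left out of the search. A match describes the letters in the window and shows no binding.

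BCL6, the repressor that gives the germinal center its character, was the member with the largest difference. Its probe set 203140_at had log2 values of 10.58, 10.34 and 10.64 with dexamethasone at 24 h, against 5.30, 5.12 and 5.19 with ethanol. At 6 h the same probe set had log2 values of 5.84, 6.71 and 6.37 with dexamethasone, against 4.90, 5.60 and 5.10 with ethanol. Dexamethasone and ethanol arrays did not overlap at either time, and each dexamethasone array stood above the ethanol array of its own experiment. The log2 difference was 5.32 ± 0.22 (SE, n = 3 arrays per group) at 24 h, a 39.9-fold difference that stood at rank 40 among the increases of all tested probe sets, and 1.11 ± 0.22 at 6 h.

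The order of the mean levels of BCL6 203140_at was 10.52 ± 0.16 (SD, n = 3) with dexamethasone at 24 h, 6.31 ± 0.44 with dexamethasone at 6 h, and then both ethanol groups at 5.20 ± 0.36 (6 h) and 5.20 ± 0.09 (24 h), all log2 values, of which the last pair did not differ beyond their spread. The call at 6 h ended when the 6 h arrays were fitted alone and when the ethanol array of experiment 0 or of experiment 3 was left out. The other BCL6 probe sets lay under the floor in every group except dexamethasone at 24 h. On 215990_s_at the log2 values were 6.08, 6.99 and 7.25 with dexamethasone at 24 h, against 2.43, 2.44 and 2.41 with ethanol, which is at least a 6.83-fold difference when ethanol is set to the floor. On 228758_at they were 4.24, 4.09 and 4.66 with dexamethasone at 24 h, against 2.52, 2.50 and 2.50 with ethanol, or at least 1.26-fold.

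At 6 h neither of these other BCL6 probe sets left the background: 215990_s_at lay between 2.42 and 2.44 with dexamethasone and between 2.41 and 2.43 with ethanol. The early difference of BCL6 was thus seen on 203140_at alone. The mean of the 3 probe sets as 1 value per gene gave fitted log2 differences of 3.83 ± 0.13 (SE) at 24 h and 0.38 ± 0.13 at 6 h. The second was not called. Both means include 215990_s_at and 228758_at, whose ethanol values are background, so neither is a measured size. The 6 h mean therefore does not decide on the early difference of 203140_at.

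**Figure D1:**
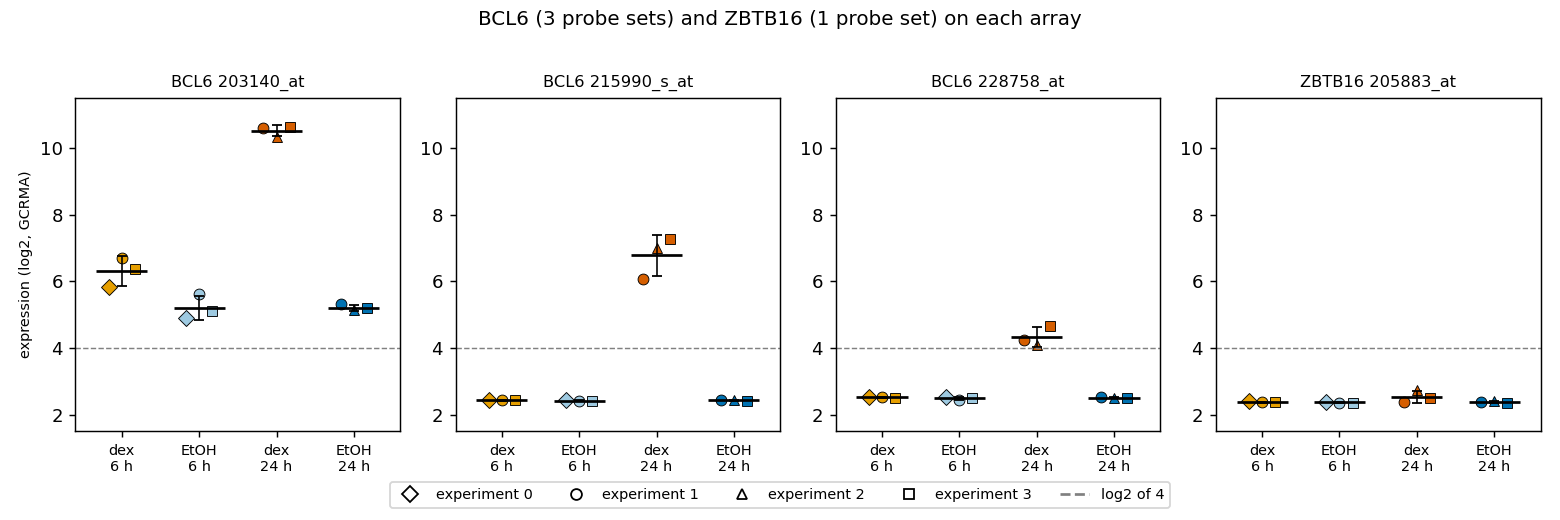
Log2 expression (y axis) of the 3 BCL6 probe sets and of ZBTB16 on each array, by treatment and time (x axis; dex, dexamethasone; EtOH, ethanol); symbols give the experiment, bars the mean ± SD of 3 arrays, and the dashed line the floor at 4. The 3 dexamethasone arrays of 24 h stand apart on each BCL6 probe set, at 10.34 to 10.64 on 203140_at, while ZBTB16 stays between 2.35 and 2.72 in all groups.

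Since BCL6 is best known from B cells, B-cell markers were read beside it. Of 5 such markers, MS4A1, PAX5 and CD22 never reached the floor (highest log2 values of 2.78, 3.40 and 3.03), and CD79A and CD79B were tested. CD79A, a part of the B-cell receptor, had log2 values of 11.72, 11.80 and 11.64 with dexamethasone at 24 h, against 10.25, 10.24 and 10.02 with ethanol, and it rose by a log2 of 1.55 ± 0.18 (SE, limma adjusted p = 5.07e-05). CD79B was not called at 24 h, and neither of the 2 was called at 6 h. The summed level of the 2 tested markers ran from 11.71 to 11.86 (log2) with dexamethasone at 24 h, against 10.20 to 10.39 with ethanol. At 6 h the sums overlapped, with values up to 10.95 for dexamethasone and up to 10.55 for ethanol. The part of these markers in the BCL6 difference was not tested.

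ZBTB20, a relative of BCL6 that represses alpha-fetoprotein in liver and takes part in plasma cell and neural development, was measured by 12 probe sets, of which 9 were tested. All 9 were called higher with dexamethasone at 24 h. For 226250_at, 226252_at, 227082_at and 227121_at the filter fixed this, since only their dexamethasone arrays of 24 h reached the floor. The 9 probe sets measure the same gene on the same arrays and are not independent. Over all tested probe sets 47.3% were called at 24 h. On 205383_s_at, 213156_at, 222357_at and 235308_at, which had ethanol arrays at the floor, the log2 differences ran from 2.97 to 3.44. On the other 5 every ethanol array of 24 h lay under the floor, and their bounds ran from at least 2.74-fold on 226250_at to at least 11.9-fold on 213158_at. On 205383_s_at, the log2 values at 24 h were 7.87, 7.43 and 7.86 with dexamethasone, against 4.87, 4.16 and 4.89 with ethanol. The difference there was 3.08 ± 0.32 (SE, log2), or 8.45-fold. On 213156_at, they were 7.73, 7.31 and 8.07 with dexamethasone, against 3.85, 4.03 and 4.90 with ethanol (3.44 ± 0.31). On 222357_at, which had the smallest error, they were 7.13, 7.03 and 7.56 with dexamethasone, against 4.35, 4.15 and 4.30 with ethanol (2.97 ± 0.12).

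On ZBTB20 213158_at, the log2 values at 24 h were 7.79, 6.99 and 7.95 with dexamethasone, against 2.40, 3.15 and 3.95 with ethanol, which is at least 11.9-fold over the floor. On 227082_at, they were 7.14, 6.20 and 7.24 with dexamethasone, against 2.64, 2.61 and 2.73 with ethanol, or at least 7.27-fold. Experiment 2 gave the lowest dexamethasone value at 24 h on each of the 9 tested probe sets, although still above every ethanol array. Both untested probe sets at the edge of the filter were also higher on each dexamethasone array of 24 h than on any ethanol array, with log2 values up to 5.42 on 232125_at and 4.26 on 232929_at. The remaining one, 244581_at, stayed between 2.38 and 2.48 in all groups.

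At 6 h the ZBTB20 probe sets differed among themselves. On 213158_at the log2 values were 4.25, 4.47 and 4.71 with dexamethasone, against 3.02, 3.55 and 3.63 with ethanol, without overlap, or at least 1.39-fold over the floor. On 205383_s_at they were 5.10, 5.72 and 5.94 with dexamethasone, against 4.17, 5.02 and 5.31 with ethanol, with overlap (0.76 ± 0.32). Each dexamethasone array was above the ethanol array of its own experiment on both probe sets. The remaining 7 tested probe sets had log2 differences between -0.09 and 0.26 at 6 h. No ZBTB20 probe set was called at 6 h, and with the experiment as a block 205383_s_at was.

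**Figure D2:**
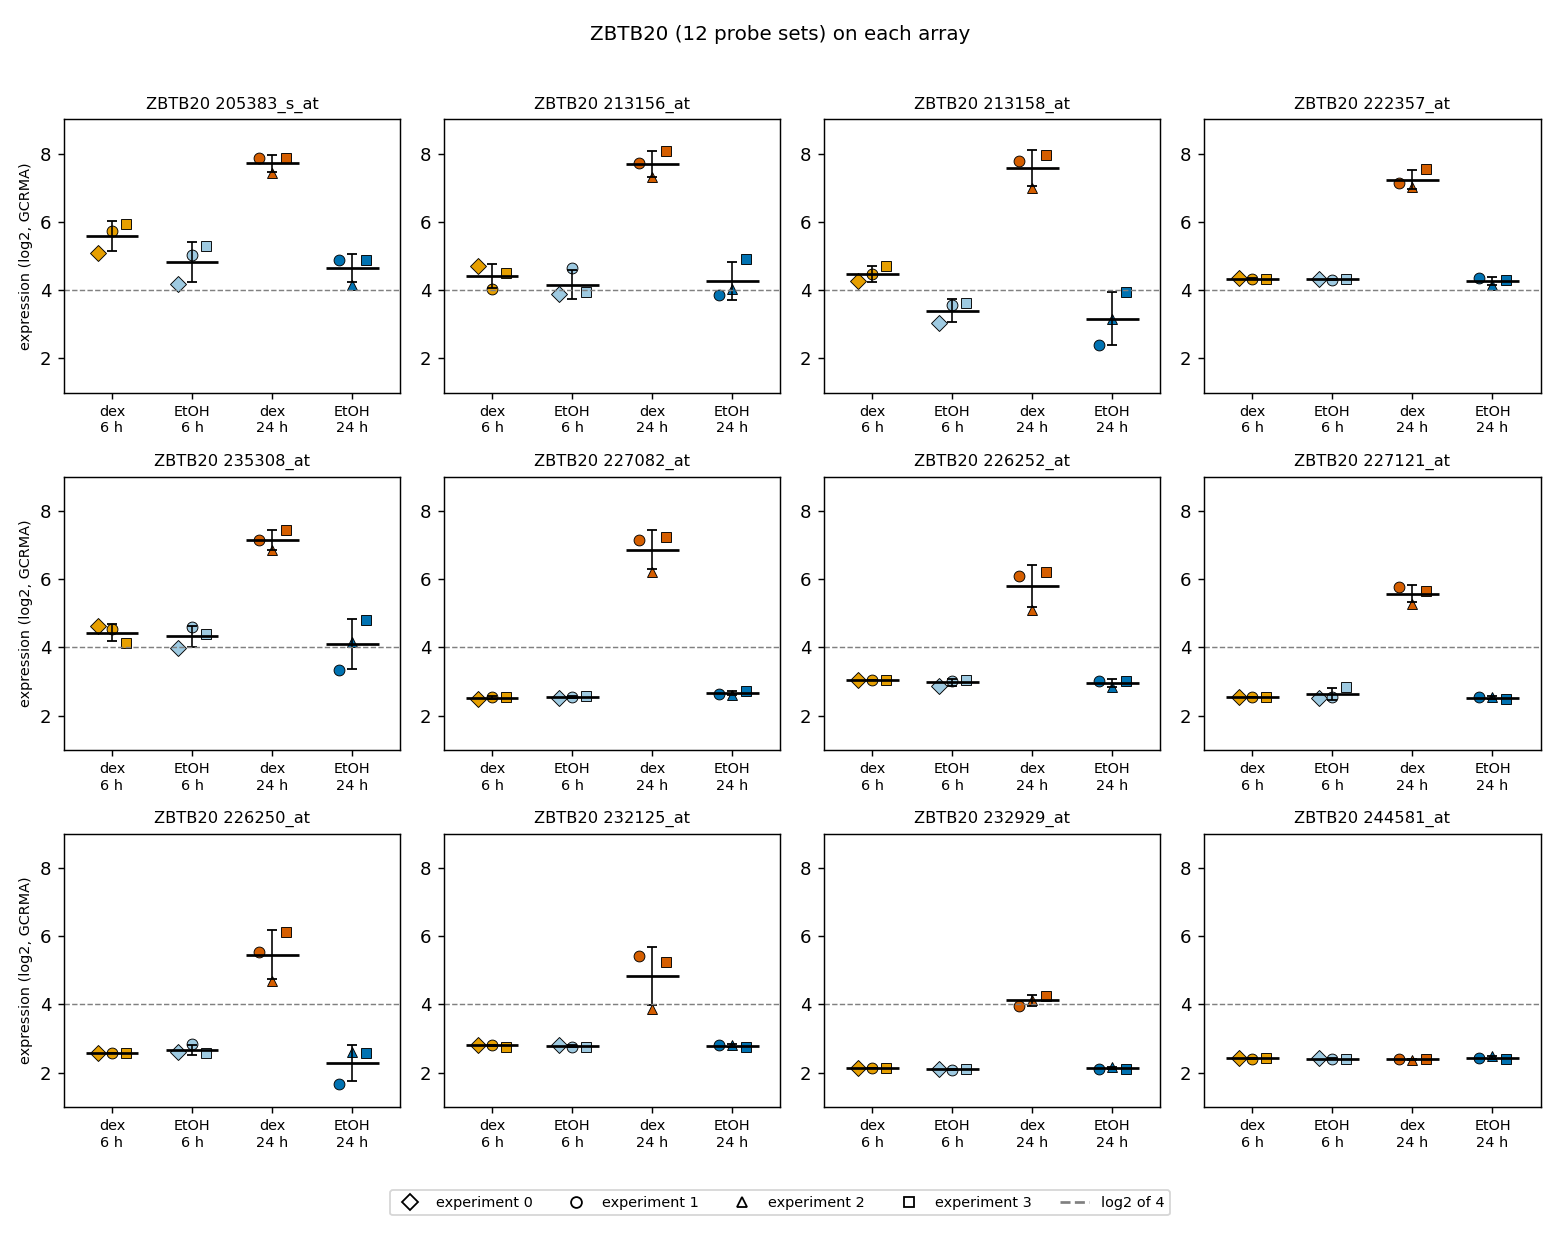
Log2 expression (y axis) of the 12 ZBTB20 probe sets on each array, by treatment and time (x axis), in the order of their level with dexamethasone at 24 h; symbols give the experiment, bars the mean ± SD of 3 arrays, and the dashed line the floor at 4. The dexamethasone arrays of 24 h stand above all ethanol arrays on 11 probe sets, and 244581_at stays near a log2 of 2.4 throughout.

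ZBTB24, one of the genes whose loss causes immunodeficiency with centromeric instability and facial anomalies (ICF syndrome), was the only member called lower, which held for all 3 of its probe sets at 24 h. Over all tested genes 28.1% were called lower at 24 h, and over all tested probe sets 47.3% were called in either direction. The 3 probe sets measure the same gene on the same arrays and are not independent. On 205340_at the log2 values were 7.58, 7.67 and 7.38 with dexamethasone at 24 h, against 8.48, 8.70 and 8.71 with ethanol. At 6 h they were 8.41, 8.36 and 8.35 with dexamethasone, against 8.85, 8.72 and 8.86 with ethanol. The groups did not overlap at either time, and the log2 differences were -1.09 ± 0.09 (SE) at 24 h, a 0.471-fold level, and -0.43 ± 0.09 at 6 h.

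On ZBTB24 1554037_a_at the log2 values at 24 h were 5.58, 5.07 and 5.37 with dexamethasone, against 6.29, 6.53 and 6.45 with ethanol (-1.08 ± 0.13), and at 6 h they were 6.21, 6.03 and 6.09 with dexamethasone, against 6.70, 6.59 and 6.37 with ethanol (-0.44 ± 0.13). Again the groups did not overlap at either time. The third probe set, 1554036_at, varied more, with 3.53, 4.94 and 4.71 for dexamethasone against 5.45, 5.82 and 5.65 for ethanol at 24 h (-1.25 ± 0.42). Its call at 24 h ended without the filter and when the dexamethasone array of experiment 1 or any 1 of the 3 ethanol arrays of 24 h was left out. The 6 h call of 205340_at ended when the 6 h arrays were fitted alone and when the dexamethasone array of experiment 1 or 3, or the ethanol array of experiment 0 or 3, was left out. The 24 h calls of 205340_at and 1554037_a_at held in each alternative run. The mean of the 3 probe sets was called at 24 h (-1.14 ± 0.13) and not at 6 h (-0.44 ± 0.13).

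ZBTB1, which lymphoid progenitors need to make T cells, had 3 tested probe sets (chr14:64503716-64533693). On 1557036_at the log2 values at 24 h were 7.84, 6.93 and 7.44 with dexamethasone, against 6.60, 5.98 and 6.24 with ethanol, a difference of 1.13 ± 0.35 (SE). The groups did not overlap, and the order of the experiments was the same in both: experiment 1 was highest and experiment 2 lowest. At 6 h this probe set varied more between experiments, at 7.72, 6.65 and 7.15 with dexamethasone against 7.44, 6.28 and 7.07 with ethanol, than between treatments (0.25 ± 0.35). Its call at 24 h ended without the filter, with scaling to spike controls, and when the dexamethasone array of experiment 1 or 3 or the ethanol array of experiment 2 or 3 was left out.

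Another ZBTB1 probe set, 213376_at, had log2 values of 10.83, 10.93 and 10.96 with dexamethasone at 24 h, against 10.53, 10.65 and 10.75 with ethanol. Here the groups stood apart by only 0.26 ± 0.10 (SE), not a call, although a call with the experiment as a block, and -0.08 with scaling to spike controls. On 205092_x_at the difference at 24 h was 0.52 ± 0.22, also without a call. With ethanol alone, 213376_at was lower at 24 h than at 6 h, at 10.53 to 10.75 against 10.93 to 11.16, a log2 difference of -0.38 ± 0.10 that was not called (adjusted p = 0.120).

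The methyl-CpG binding members ZBTB4 and ZBTB38 had smaller differences. ZBTB4 225629_s_at (gene at chr17:7459378-7484249) had log2 values of 8.81, 8.57 and 8.88 with dexamethasone at 24 h, against 8.20, 8.41 and 8.41 with ethanol, without overlap and with a difference of 0.41 ± 0.10 (SE). At 6 h its values were 8.41, 8.40 and 8.34 with dexamethasone, against 8.25, 8.41 and 8.34 with ethanol (0.05 ± 0.10). The second ZBTB4 probe set, 227047_x_at, differed by 0.16 ± 0.10 at 24 h and its groups overlapped. The mean of both was called at 24 h (0.29 ± 0.07).

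ZBTB38 225512_at (gene at chr3:141324186-141449792) had log2 values of 4.37, 4.62 and 4.46 with dexamethasone at 24 h, against 3.84, 3.96 and 3.89 with ethanol, so ethanol was below the floor and the difference was at least 1.40-fold. At 6 h the dexamethasone arrays gave 4.05, 3.92 and 3.92, against 4.29, 3.92 and 3.89 with ethanol. The 4 untested ZBTB38 probe sets stayed between 1.88 and 3.20. With scaling to spike controls the 24 h differences of ZBTB4 225629_s_at and ZBTB38 225512_at shrank to 0.08 and 0.25 and were not called.

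ZBTB17 (MIZ1; chr1:15941869-15976101) gave probe sets that disagreed. On 203602_s_at the log2 values at 24 h were 7.07, 7.04 and 7.25 with dexamethasone, against 6.71, 6.86 and 6.95 with ethanol (0.28 ± 0.10, SE). On 203601_s_at they were 5.50, 5.96 and 5.98 with dexamethasone, against 5.75, 5.86 and 5.91 with ethanol (-0.03 ± 0.13). The first was called at 24 h and the second was not, and the call of the first ended in 10 of 21 alternatives, with a difference of -0.060 under scaling to spike controls. Their mean was not called (0.12 ± 0.10).

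ZBTB10, on chromosome 8, a repressor of Sp-regulated genes, had 3 tested probe sets whose differences had opposite signs at the 2 times. On 228562_at the log2 values at 6 h were 8.54, 8.44 and 8.35 with dexamethasone, against 8.68, 8.72 and 8.61 with ethanol (-0.23 ± 0.11, SE). At 24 h they were 9.24, 8.85 and 8.86 with dexamethasone, against 8.65, 8.81 and 8.71 with ethanol (0.26 ± 0.11). The groups did not overlap at either time, and neither difference was called. The same signs appeared on 219312_s_at (-0.09 and 0.21) and on 233899_x_at (-0.20 and 0.26). With scaling to spike controls the 24 h differences of 228562_at, 219312_s_at and 233899_x_at turned to -0.08, -0.12 and -0.076. With the experiment as a block 219312_s_at was called at 24 h. In the ethanol arrays alone 219312_s_at was higher at 24 h than at 6 h, at 7.87 to 8.01 against 7.35 to 7.74 (0.36, adjusted p = 0.130). The 4 untested ZBTB10 probe sets stayed between 2.55 and 4.04.

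ZBTB7A (chr19:4043303-4066899) gave no call at either time. On 226554_at the log2 values at 24 h were 9.30, 9.14 and 9.10 with dexamethasone, against 9.18, 9.24 and 9.15 with ethanol (-0.01 ± 0.10, SE). On 219186_at the difference was 0.03 ± 0.11 at 24 h, and the groups overlapped on both probe sets at both times. The 4 untested probe sets stayed between 1.81 and 4.08. ZBTB16 (chr11:114059711-114256770) was measured by 205883_at alone, at log2 values of 2.36, 2.72 and 2.48 with dexamethasone at 24 h, against 2.38, 2.41 and 2.35 with ethanol, all under the floor, so no difference was detectable at this signal.

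**Figure D3:**
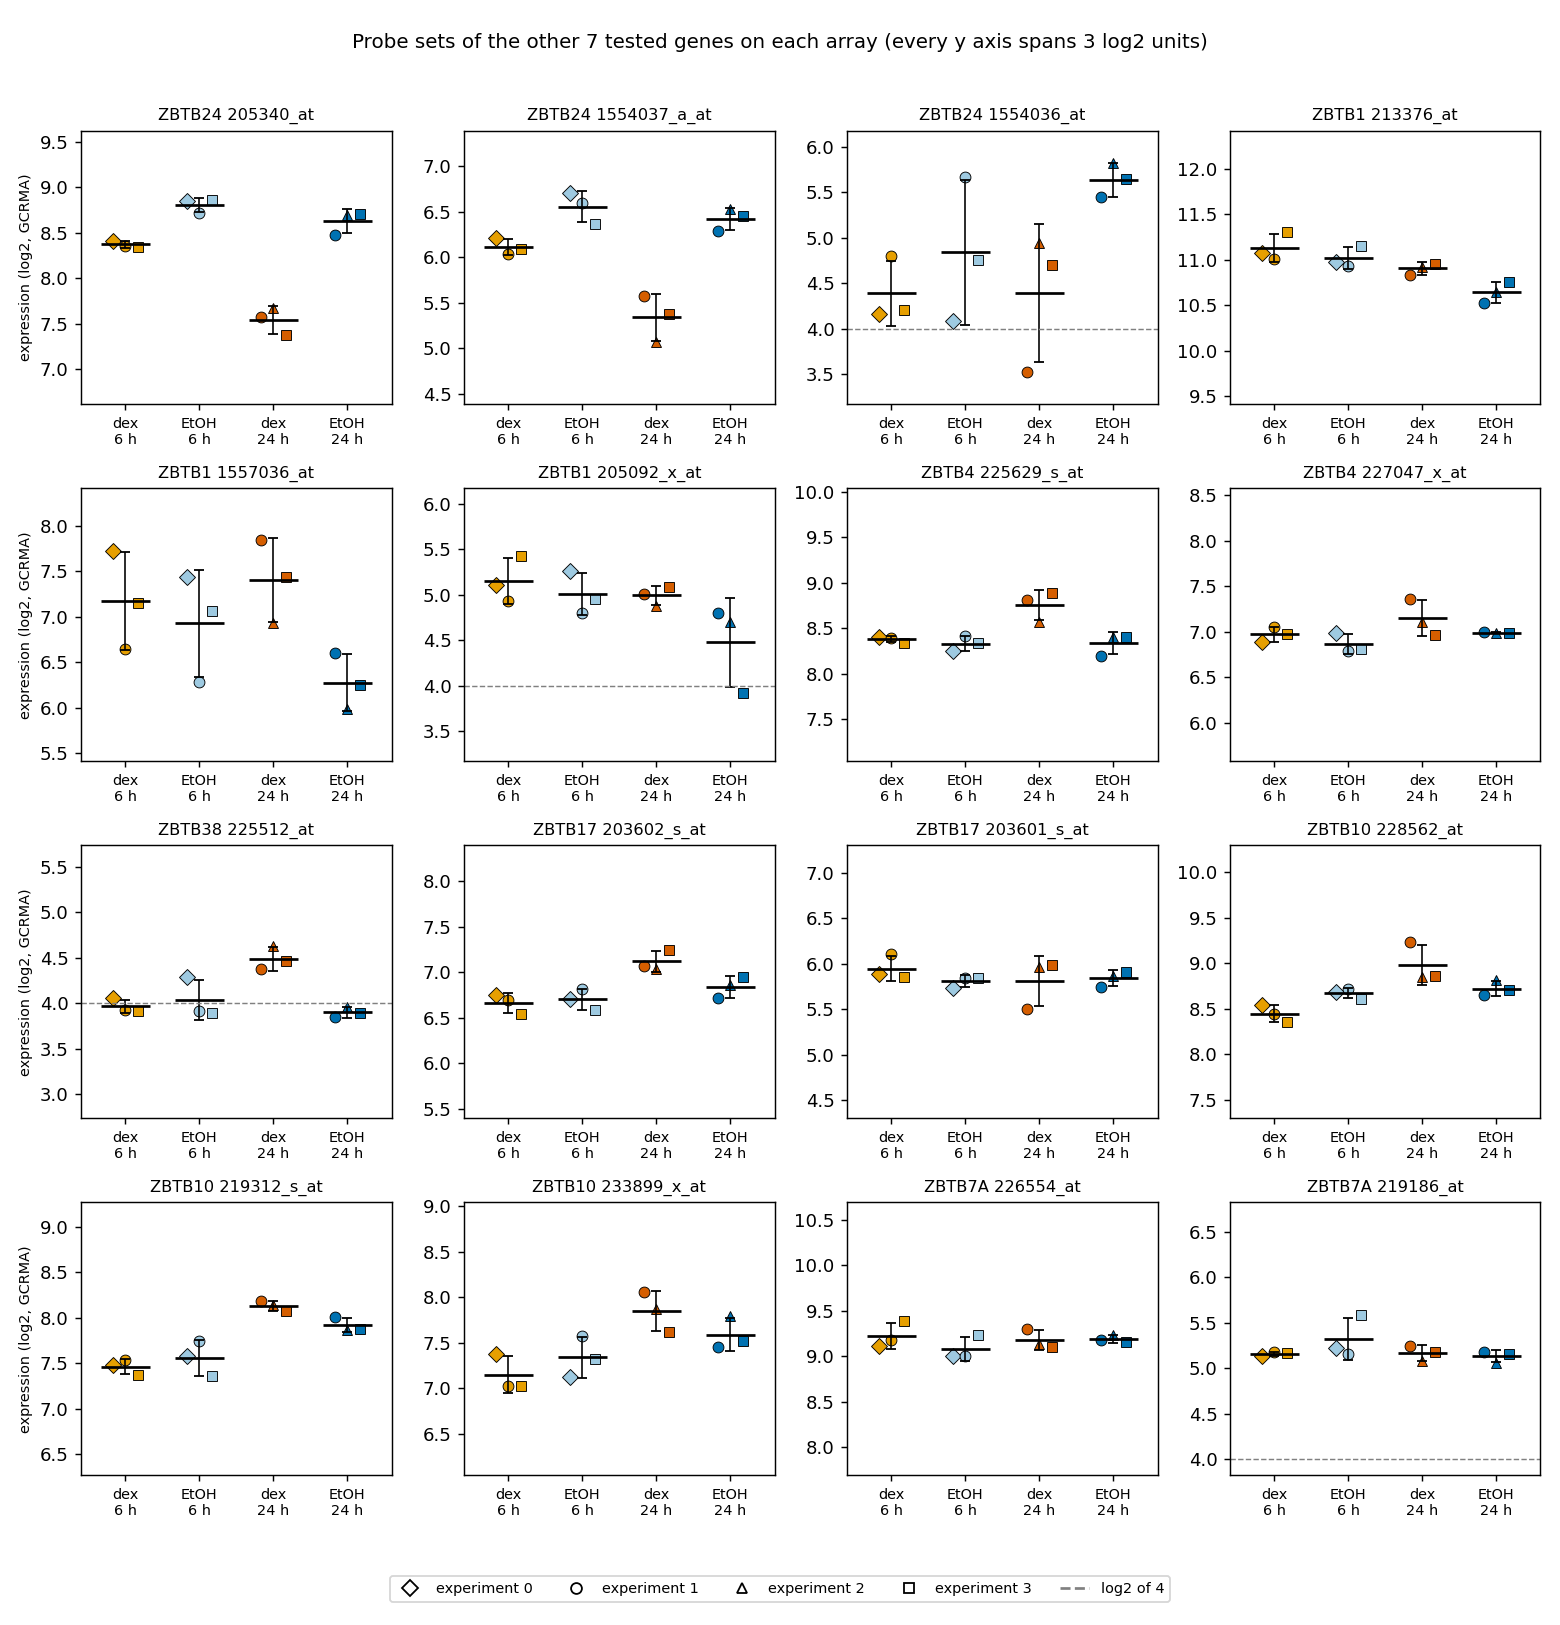
Log2 expression (y axis, each spanning the same number of units) of the 16 tested probe sets of the other 7 genes on each array, by treatment and time (x axis); symbols give the experiment, bars the mean ± SD of 3 arrays, and the dashed line the floor at 4. ZBTB24 205340_at and 1554037_a_at are lower with dexamethasone at both times, and at 24 h ZBTB1 1557036_at, ZBTB4 225629_s_at, ZBTB17 203602_s_at and ZBTB38 225512_at are higher, while both ZBTB7A probe sets overlap.

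Across the members, 2 of the 28 tested probe sets were called at 6 h, BCL6 203140_at (higher) and ZBTB24 205340_at (lower), where 6.2% of all tested probe sets were called. At 24 h 19 were called, 16 higher and 3 lower, where 47.3% of all tested probe sets were called. The median log2 difference over all tested probe sets was -0.01 at both times. The response differed between the times on 16 probe sets, 14 with a higher and 2 with a lower 24 h response (ZBTB24), where 23.1% of all tested probe sets were called. Because the members were selected on these contrasts and 6 of them passed the filter only through dexamethasone at 24 h, nothing is read from these counts.

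With ethanol alone, a contrast in which the carrier arrays of 24 h are set against those of 6 h, none of the 28 was called by limma (3 at an unadjusted p under 0.05, lowest adjusted p 0.120), where 0.486% of all tested probe sets were called. The log2 differences ran from -0.65 on ZBTB1 1557036_at to 0.80 on ZBTB24 1554036_at. BCL6 203140_at differed by 0.0012 between the ethanol groups. This contrast crosses the sets of arrays read from the scan codes.

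The poly-A spike controls were brighter on the dexamethasone arrays, by a mean log2 of 0.47 at 6 h and 0.34 at 24 h. So were the hybridization controls, by 0.34 at 6 h and 0.38 at 24 h, and the source of these offsets was not tested. Scaling each array to its poly-A spike controls lowered every log2 difference by 0.47 at 6 h and 0.34 at 24 h. With that scaling 25 of the 28 differences were negative at 6 h and 12 of 28 at 24 h, and the tested probe sets of BCL6 and ZBTB20 stayed higher, and those of ZBTB24 lower, at 24 h. Of the 10 tested T-lineage markers 5 rose at 24 h (CD3D, CD3E, CD7, CD4 and TAL1), none of which passed with that scaling, and 3 fell (CD5, CD1A and LCK). CD5 lost its call with the experiment as a block, with cyclic loess and with 9 of the arrays left out in turn, CD1A with cyclic loess and 7, LCK with cyclic loess and 2, and CD4 with 5. The summed level of the 10 ran from 15.03 to 15.13 (log2) with dexamethasone at 24 h, against 14.80 to 14.87 with ethanol, and its part in the member differences was not tested. Of 6 stromal markers 2 were tested, and VIM rose at 24 h by 0.34 (limma adjusted p = 0.00713), though not with that scaling. The other tested stromal marker was not called, and the median log2 difference of the 2 at 24 h was 0.0014.

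**Figure D4:**
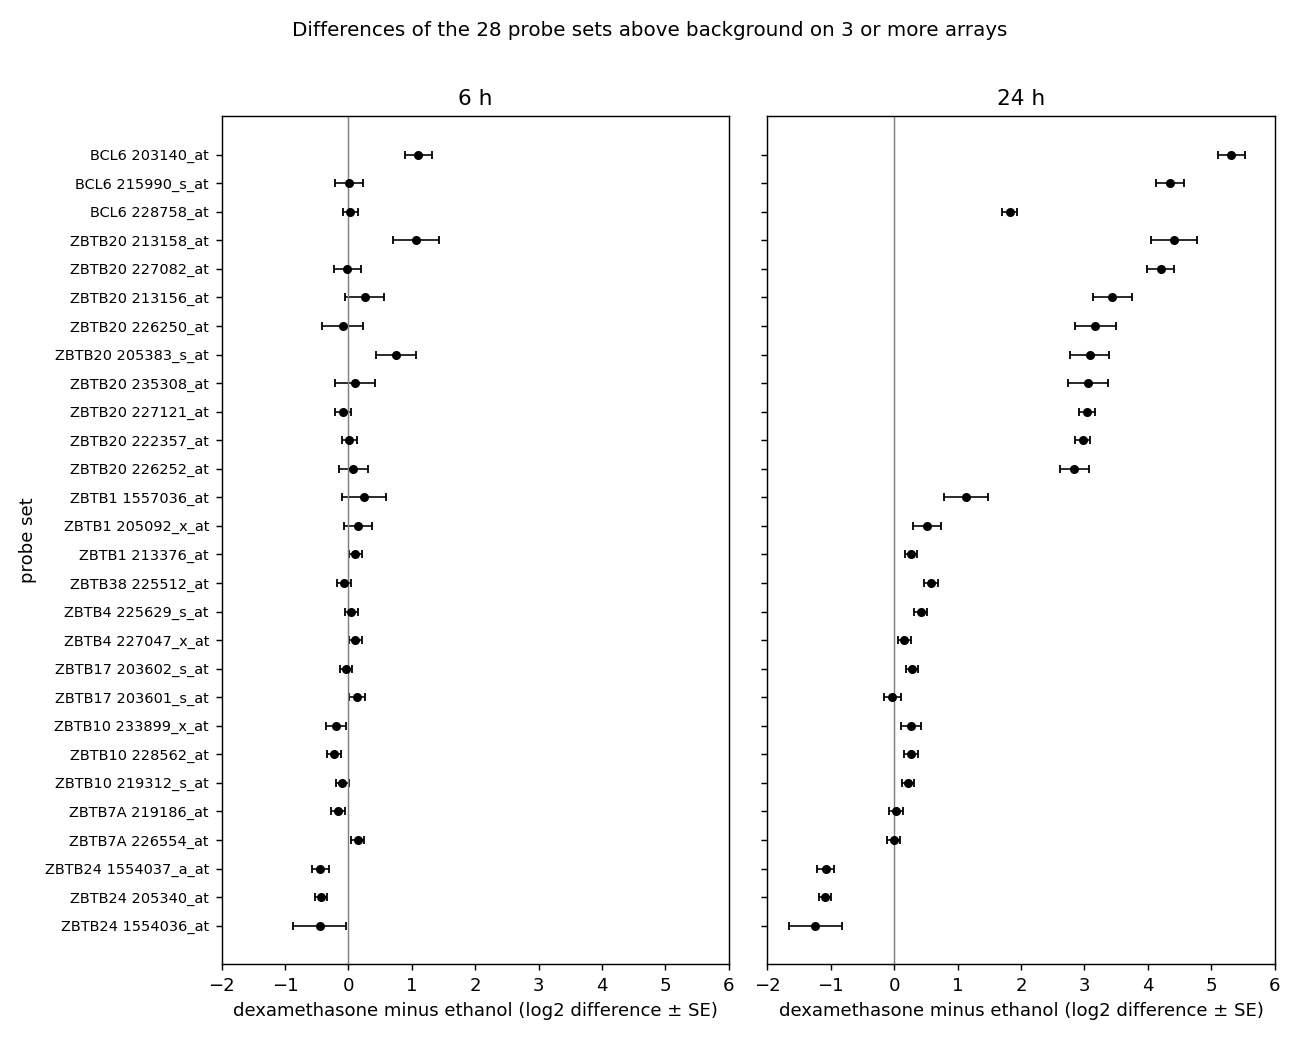
Log2 difference of dexamethasone minus ethanol (x axis, ± SE of the limma fit, n = 3 arrays per group) at 6 h and 24 h for the 28 tested member probe sets (y axis, grouped by gene). At 24 h BCL6 203140_at reaches 5.32, the 4 ZBTB20 probe sets with ethanol arrays at the floor lie between 2.97 and 3.44, and the 3 ZBTB24 probe sets lie between -1.25 and -1.08. Points of the other 5 ZBTB20 probe sets, of BCL6 215990_s_at and 228758_at and of ZBTB38 225512_at are fitted against ethanol values under the floor and are not measured sizes.

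The rest of the BTB zinc finger family was read from a list of 39 genes, with the tested probe set of the highest mean standing for a gene, as in the lists that follow. Of the 28 genes tested, 2 rose and 5 fell at 24 h and 21 did neither, where 23.9% of all 9947 tested genes rose and 28.1% fell. PATZ1, a BTB protein with AT-hook motifs, had log2 values of 9.26, 9.40 and 9.68 with dexamethasone at 24 h, against 8.26, 8.40 and 8.68 with ethanol (1.00 ± 0.14 SE, limma adjusted p = 0.00014). ZBTB37 rose by 0.98 ± 0.14 (adjusted p = 0.00016). ZBTB2, a transcriptional repressor, had log2 values of 8.06, 8.11 and 7.92 with dexamethasone, against 8.78, 8.95 and 8.93 with ethanol, and fell by 0.86 (adjusted p = 0.000156). HIC1, a tumor suppressor, fell (adjusted p = 0.00339) to dexamethasone arrays below the floor, and was at least 1.12-fold lower.

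The other 3 that fell were ZBTB42, HIC2 and ZBTB11, named after their values were seen. The call of ZBTB11 ended with cyclic loess and without the dexamethasone array of experiment 3 or the ethanol array of experiment 2 (highest adjusted p 0.0768). The median log2 difference of the 28 genes at 24 h was 0.01, beside -0.02 for all tested genes. A fit with experiment as a block had 3 genes higher and 10 lower, and with scaling to spike controls 2 rose and 12 fell. At 6 h PATZ1 rose (0.52, adjusted p = 0.0493) and HIC2 fell (-0.33, adjusted p = 0.0498), where 2.72% of all tested genes rose and 3.77% fell. The HIC2 call ended with any 1 array left out, and that of PATZ1 with any 1 of the 6 h arrays, or with the dexamethasone array of experiment 2 or the ethanol array of experiment 1 or 2 at 24 h, left out. With scaling to spike controls PATZ1 did not pass at 6 h (0.05, adjusted p = 0.758), when 0 of the 28 rose and 23 fell.

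Of 20 corepressor genes, which encode the complexes that BTB domains recruit, 17 were tested, and at 24 h 6 rose and 2 fell, where 23.9% of all tested genes rose and 28.1% fell. TBL1X, a subunit of nuclear receptor corepressor complexes, had log2 values of 10.12, 9.96 and 10.37 with dexamethasone at 24 h, against 7.89, 8.30 and 8.47 with ethanol (1.93 ± 0.18 SE, adjusted p = 1e-05). HDAC7, a class II histone deacetylase of T cells, rose by 0.90 ± 0.15 (adjusted p = 0.000582). HDAC2, a class I enzyme, fell by 0.48 (adjusted p = 0.000265), and TBL1XR1, the close relative of TBL1X, fell by 0.20 (adjusted p = 0.0265). The direction of the pair TBL1X and TBL1XR1 was thus opposite in log2 differences, though the call of TBL1XR1 ended in some alternatives, given below.

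MTA3, CTBP1, HDAC4 and RCOR1 also rose at 24 h, by 0.51 to 0.62, and did not pass with scaling to spike controls, when 2 corepressor genes rose and 6 fell. MTA3, a cofactor of BCL6 in B cells, and CTBP1 were the 2 that rose at 6 h (0.57, adjusted p = 0.0292, and 0.51, adjusted p = 0.00487), and MTA3 did not pass there without the dexamethasone array of experiment 1 or the ethanol array of experiment 0 or 3. With scaling to spike controls neither passed at 6 h (0.10, adjusted p = 0.495, and 0.04, adjusted p = 0.803), when 0 corepressor genes rose and 10 fell. HDAC4 did not pass at 24 h without the dexamethasone array of experiment 3. BCOR, which BCL6 binds directly, had a log2 difference of 0.00 at 24 h and was not called. Over the 17 genes the median log2 difference was 0.12 at 24 h and 0.13 at 6 h, beside -0.02 and -0.0023 for all tested genes. The call of TBL1XR1 ended with cyclic loess and when the dexamethasone or the ethanol array of experiment 2 or 3 at 24 h was left out (highest adjusted p 0.257 over all alternatives).

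**Figure D5:**
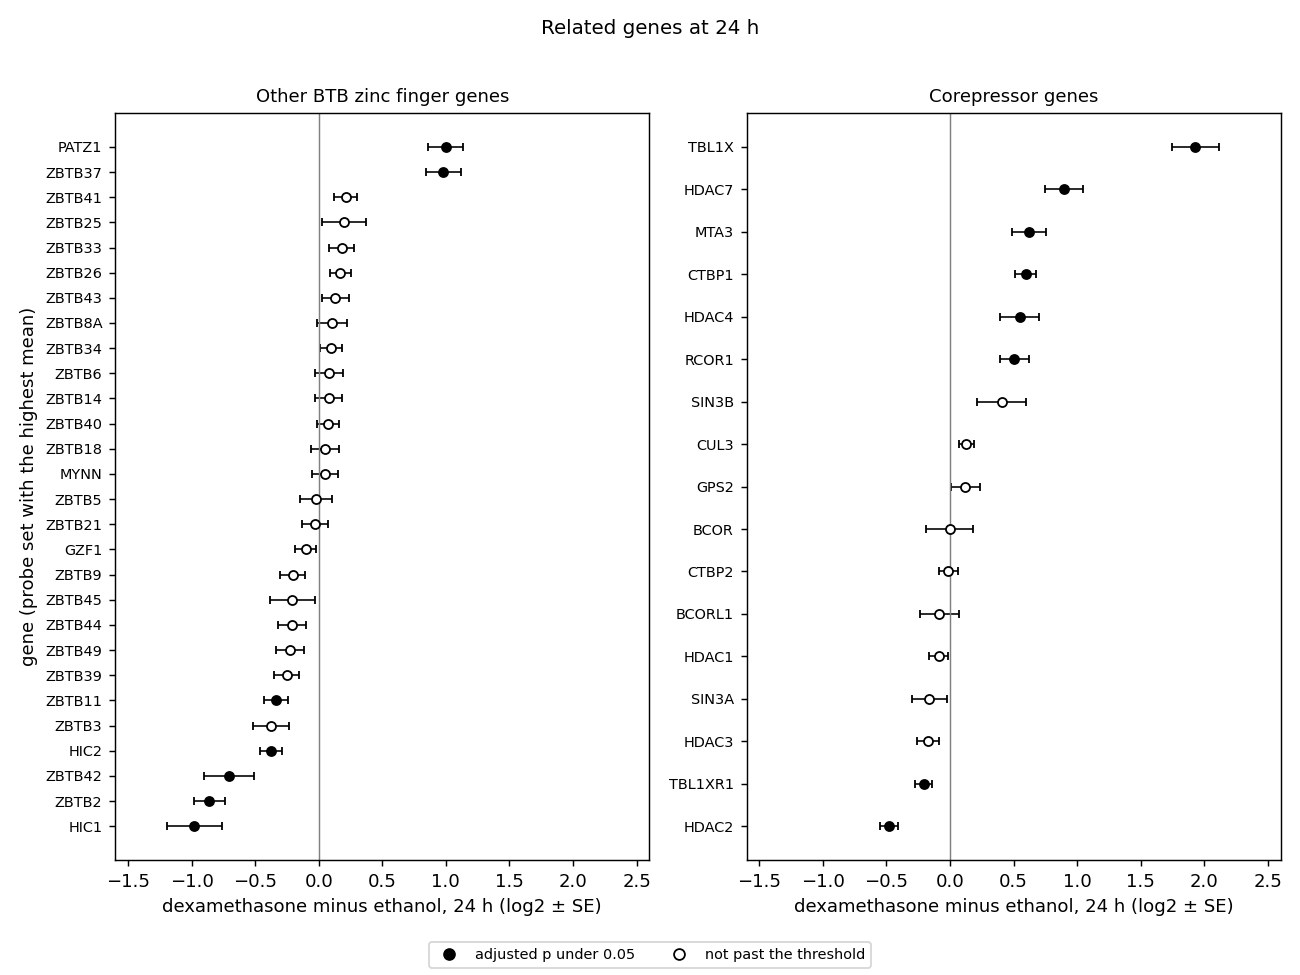
Log2 difference of dexamethasone minus ethanol at 24 h (x axis, ± SE, n = 3 arrays per group) for the 28 tested other BTB zinc finger genes and the 17 tested corepressor genes (y axis); filled points passed the threshold and open points did not. PATZ1 (1.00) and TBL1X (1.93) lie farthest to the right, and HIC1 (-0.98) farthest to the left, a fitted value with the dexamethasone arrays under the floor; of the genes above the floor in both groups ZBTB2 (-0.86) is the lowest.

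Among 20 genes known as BCL6 targets, mostly in B cells, 11 were tested, and at 24 h 5 rose and 5 fell, against a background of 23.9% rising and 28.1% falling over all tested genes. CD69, an early activation antigen, had log2 values of 12.46, 12.19 and 12.07 with dexamethasone at 24 h, against 7.90, 8.18 and 7.52 with ethanol (4.38 ± 0.18 SE, adjusted p = 2.45e-08). PRDM1 (BLIMP1), which represses BCL6 and is repressed by it in B cells, had log2 values of 5.11, 4.63 and 5.46 with dexamethasone at 24 h, against 2.27, 2.28 and 2.25 with ethanol. Its ethanol arrays lay below the floor, and the rise was at least 2.09-fold (adjusted p = 1.6e-05).

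MYC had log2 values of 10.26, 10.54 and 10.58 with dexamethasone at 24 h, against 13.22, 13.11 and 13.21 with ethanol, and fell by 2.72 (adjusted p = 1.6e-08). BCL2, which guards mitochondria against apoptosis, fell by 0.79 (adjusted p = 0.0142, but 0.0522 without the dexamethasone array of experiment 3 at 24 h). The others called were ID2, CDKN1B and NFKB1 (higher) and CD44, BCL2L1 and ATR (lower), named after their values were seen. CD44 did not pass without the dexamethasone array of experiment 3 or the ethanol array of experiment 1 or 2 (highest adjusted p 0.0675). At 6 h CD69 rose by 3.23, ID2 rose by 0.70 (adjusted p = 0.0387, but as high as 0.208 in the alternatives, 7 left-out arrays among them) and MYC fell. Over the 11 genes the median log2 difference at 24 h was -0.20, beside -0.02 for all tested genes. With scaling to spike controls 4 rose and 6 fell.

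Of 12 genes listed here as regulators of BCL6, 7 were tested. At 24 h 5 rose and 1 fell, beside 23.9% higher and 28.1% lower over all tested genes. FOXO3, a forkhead factor that activates BCL6, had log2 values of 11.20, 11.10 and 11.37 with dexamethasone at 24 h, against 10.21, 10.28 and 10.16 with ethanol (1.00 ± 0.08 SE, adjusted p = 4.14e-06). At 6 h FOXO3 differed by 0.03 and was not called. STAT5B, STAT3 and FOXO4 rose too (0.68, 0.63 and 0.58), as did PRDM1, which stands in both BCL6 lists. MEF2C, a MEF2 transcription factor, had log2 values of 9.41, 9.45 and 9.01 with dexamethasone at 24 h, against 10.89 to 11.01 with ethanol. It fell by 1.68 (limma adjusted p = 1.1e-06) and was the only one to fall at 6 h. STAT5B, STAT3 and FOXO4 did not pass with scaling to spike controls, when 2 rose and 2 fell, and STAT5A fell as well with the experiment as a block (adjusted p = 0.0159). STAT3 also did not pass without the dexamethasone array of experiment 3 at 24 h, and FOXO4 without the dexamethasone or the ethanol array of experiment 1 or 3. Over the 7 genes the median log2 difference at 24 h was 0.63.

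Of 12 genes around MIZ1 and MYC, 8 were tested, and at 24 h HUWE1, a ubiquitin ligase of both proteins, rose by 0.20 (adjusted p = 0.0225) and 5 fell, with MYC and BCL2, given above, the lowest (all tested genes: 23.9% rose and 28.1% fell). NPM1, MNT and GFI1 were the others that fell (-0.50, -0.49 and -0.32). The call of HUWE1 ended with median centring, with scaling to spike controls (-0.14) and without the dexamethasone array of experiment 3 or the ethanol array of experiment 2 or 3. GFI1 did not pass without the dexamethasone array of experiment 2 or 3 or the ethanol array of experiment 3 (highest adjusted p 0.0976). Over the 8 genes the median log2 difference was -0.40 at 24 h. At 6 h MYC was the only one that fell.

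Of 17 genes of innate-like and follicular T cells, the programs of ZBTB16 and BCL6, 13 had a probe set on the array and 3 were tested, all of which fell at 24 h, as 28.1% of all tested genes did. CD1D, which presents lipids to natural killer T cells, had log2 values of 7.92, 7.81 and 8.23 with dexamethasone at 24 h, against 8.95, 8.88 and 8.93 with ethanol, and fell by 0.93 (adjusted p = 0.000347). SH2D1A, the SAP adaptor that follicular helper T cells need, fell by 0.45 (adjusted p = 0.00992), and TOX fell by 0.30 (adjusted p = 0.018). CXCR5 and IL21, defining genes of follicular helper T cells, stayed at or below log2 values of 2.49 and 2.47 on all 12 arrays. TOX did not pass with cyclic loess and without the dexamethasone array of experiment 2 or the ethanol array of experiment 1 (highest adjusted p 0.131). At 6 h CD1D (-0.68, adjusted p = 0.0201) and TOX fell, and CD1D did not pass without the dexamethasone array of experiment 3 or the ethanol array of experiment 0.

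The genes whose pattern over the 12 arrays was most like that of a member were named by Pearson's r between log2 values, over arrays that share their groups and experiments. For BCL6 203140_at they were SH3BGRL (r = 0.995), PAQR8 (r = 0.995) and GABARAPL1 (r = 0.993), with 24 h log2 differences of 0.86, 4.90 and 4.18. For ZBTB20 205383_s_at they were TLE1 (r = 0.982), KRCC1 (r = 0.981) and GRN (r = 0.978), with 24 h differences of 1.25, 2.32 and 1.53. For ZBTB10 228562_at they were PIP4P2 (r = 0.947), ANKRD50 (r = 0.944) and SLC25A36 (r = 0.941). Their differences were -0.26, -0.18 and -0.05 at 6 h and 0.32, 0.16 and 0.21 at 24 h. Genes picked by r over these arrays tend to share the signs of the member, so nothing is read from those signs. ZBTB16 has no tested probe set and was given no such list.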

How the data were processed

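The data are 1 table of 54675 probe sets on 12 arrays, deposited as log2 values that, per the submitters' processing notes, the authors computed by GCRMA (R 2.6). The method corrects background by probe sequence and normalizes quantiles, which equalizes arrays and hides a shift shared by all genes. Its settings were not stated in the labels read. The 62 control probe sets were kept apart. Group means were fitted over the full set of arrays (limma 3.58.1, R 4.3.3, 8 residual degrees of freedom, empirical Bayes) for the 23265 probe sets that reached a log2 of 4 in 3 or more arrays, with Benjamini-Hochberg adjustment over all of them and a call at an adjusted p under 0.05. The code was tested on simulated data. Errors with ± are limma's standard errors unless marked SD. A group below a log2 of 4 on all 3 arrays was given a bound, with its values set to 4.

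Members and gene lists were chosen with earlier results of these data known. All member probe sets were described, and from each other list the 2 largest called rises and the 2 largest called falls at 24 h, besides genes behind counts of 5 or fewer. Promoters and gene positions come from RefSeq tables of GRCh38.p14.

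Experiment numbers pair the samples: with group means removed, same-number arrays correlated at r = 0.417, 0.627 and 0.609 (6 h) and r = 0.286, 0.238 and 0.424 (24 h), and other pairs at 0.0500 or less. Alternatives were the experiment as a block, no or a stricter filter, median centring, spike scaling, cyclic loess, an intensity trend, the 6 arrays of a comparison alone, the mean of a gene's probe sets, and leaving out each array.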

Additional observations from a re-analysis of the deposited data

Results flagged for a closer look

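The dexamethasone response differed between 6 h and 24 h, by limma's test of the difference itself (adjusted p under 0.05), on 16 member probe sets. Since the members were selected on these arrays, the values are descriptions. The 6 h comparison inside each of them cannot be told apart from the sets of arrays read from the scan codes. The log2 response at 24 h exceeded that at 6 h on BCL6 203140_at by 4.2124, on BCL6 215990_s_at by 4.3357 and on BCL6 228758_at by 1.7911. On ZBTB20 it exceeded the 6 h response by 2.3235 (205383_s_at), 3.1847 (213156_at), 2.9551 (222357_at), 2.9476 (235308_at), 3.3364 (213158_at), 2.767 (226252_at), 4.2176 (227082_at), 3.1253 (227121_at) and 3.2579 (226250_at). The ethanol arrays lay under the floor at both times on BCL6 215990_s_at and 228758_at and on ZBTB20 213158_at, 226252_at, 227082_at, 227121_at and 226250_at, so these fitted values rest on background and are not measured sizes, and all of them but 213158_at passed the filter only through dexamethasone at 24 h. On ZBTB38 225512_at, with ethanol under the floor at 24 h, the excess was 0.6537. On ZBTB10 228562_at it was 0.4863, where every dexamethasone array was below every ethanol array at 6 h and above every one at 24 h. On ZBTB24 the 24 h minus 6 h response was -0.6519 (205340_at) and -0.6395 (1554037_a_at), that is, a larger decrease at 24 h. With scaling to the poly-A spikes 13 member probe sets were called, all with the higher response at 24 h, so neither ZBTB24 probe set was among them.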

How the results depend on the processing

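With the experiment number within time as a replicate block, which rests on numbers that pair the samples, 3039 probe sets were called at 6 h in place of 1443, and 3, 21 and 19 member probe sets at 6 h, at 24 h and for the difference between times in place of 2, 19 and 16. The ethanol contrast between times cannot be fitted with that block, since the experiment is nested in time. With the number shared across times as a replicate block, 2219 were called at 6 h and 170 in the ethanol contrast in place of 113, and no other count of calls moved by over 1.5 times with either block. Scaling to the poly-A spikes gave 15407 calls at 6 h (275 higher and 15132 lower), 14 member calls at 6 h (1 higher), 3299 for the difference between times in place of 5380, and 37 in the ethanol contrast, and it turned the called 24 h difference of ZBTB17 203602_s_at to -0.060. The filter at a log2 of 6 gave 190 and an intensity trend in the empirical Bayes step 269 calls in the ethanol contrast. Fitting only the 6 arrays of 6 h gave 490 calls and 0 member calls, with fewer samples behind the spread. Leaving out 1 array in turn gave 848 to 1385 calls at 6 h, 9303 to 11228 at 24 h (10997 with all arrays), 4217 to 5545 for the difference and 0 to 267 for the ethanol contrast. The 6 h count was over 1.5 times lower without the 6 h dexamethasone array of experiment 1 (955) or 3 (901) or the ethanol array of experiment 0 (906) or 3 (848). The ethanol count moved that far without the 6 h array of experiment 0 (0), 1 (267) or 3 (22) or the 24 h array of experiment 1 (8), 2 (2) or 3 (21). Member calls then ran from 0 to 3, 16 to 20, 14 to 17 and 0 to 0. The causes of these shifts were not tested. Over all single member probe sets and settings, 1105 values moved by less than 1 residual SD, 52 by more, and 1 called value reversed. The 24 h calls of the tested BCL6 and ZBTB20 probe sets and of ZBTB24 205340_at and 1554037_a_at held in each alternative that could be run on them. Of these probe sets, 6 reached the floor only on the dexamethasone arrays of 24 h and had to differ there. The alternatives also refit the arrays on which the members were selected, so they are no separate support for these calls. Signal over background limits ZBTB16, 4 probe sets each of ZBTB7A, ZBTB10 and ZBTB38, and all ethanol values under the floor, where a fitted difference rests on background values and only the bound is a measured size.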

Other observations

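Loss of DNMT3B, CDCA7 or HELLS causes the same ICF syndrome as loss of ZBTB24, and ZBTB24 is known to activate CDCA7, so their tested probe sets were read after the ZBTB24 values were seen. CDCA7 224428_s_at had log2 values of 12.88, 13.00 and 12.76 with dexamethasone at 24 h, against 13.20, 13.16 and 13.08 with ethanol, and fell by 0.26 (limma adjusted p = 0.0121). Its second probe set, 230060_at, differed by -0.17 and did not pass (adjusted p = 0.466). HELLS 227350_at had log2 values of 12.04, 12.01 and 11.79 with dexamethasone at 24 h, against 12.37, 12.37 and 12.39 with ethanol, and fell by 0.43 (adjusted p = 0.0432). Of the other 4 HELLS probe sets, 234040_at fell by 0.81 (adjusted p = 0.0239) and 3 did not pass, with log2 differences from -0.37 to -0.18. DNMT3B 220668_s_at differed by -0.0087 at 24 h and did not pass (adjusted p = 0.987). At 6 h none of the probe sets of these 3 genes passed, with limma adjusted p-values of 0.348 or more. Over all tested probe sets 47.3% were called at 24 h and 6.2% at 6 h. A link of these genes to the ZBTB24 difference was not tested. These comparisons were chosen with results of the arrays in view and were not repeated under other settings.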
